A study of Mus musculus with 6 samples.

Results

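The genes described are 9 genes for secreted proteins, namely Nrg4, Bmp8b, Fgf21, Gdf15, Slit2, Pltp, Il6, Kng1 and Kng2. They were chosen by name from the 21959 genes of the deposited table, as factors that brown adipose tissue can release together with the kininogens, at a time when their counts in vehicle and rebamipide were already known. Their differences between the groups are therefore given as a description, without a test. All 9 were found in the table.

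Bulk RNA-seq had been performed on dorsal skin of male C57BL/6 mice, which were shaved at 7 weeks of age, when their hair follicles were in telogen, the resting phase. Skin of 3 mice received the vehicle, 30% dipropylene glycol in 70% distilled water, and skin of another 3 mice received 3% rebamipide, a mucosal protective drug, once a day for 7 days. The study's methods count 3 mice per group, while the labels number the libraries without naming an animal, so any p-value below measures the spread between these libraries.

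Brown adipocytes burn fatty acids to make heat through UCP1, the uncoupling protein of their mitochondria, and also secrete proteins, some of them called batokines. NRG4 acts through ErbB receptors, BMP8B and GDF15 belong to the TGF-β superfamily, FGF21 is an endocrine fibroblast growth factor, SLIT2 is a Robo receptor ligand, and IL-6 is a cytokine. PLTP moves phospholipids between lipoproteins. Kininogens are precursors from which kallikreins release bradykinin, and the liver is their classical source. The deposited GO annotation placed 9 of the 9 genes in the extracellular region, against 8.47% of all genes in the table, which the choice of secreted factors fixed. It gave growth factor activity to 5 of them (Nrg4, Bmp8b, Fgf21, Gdf15 and Il6), against 0.688% of all genes.

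The libraries held 38676018 to 39915276 counted reads in the vehicle group and 32709801 to 34706852 in the rebamipide group. Genes of the mitochondrial genome took 2.59% to 5.36% of the vehicle reads and 13.28% to 21.96% of the rebamipide reads. Counts were divided by library size and scaled with TMM factors (edgeR) to give CPM, counts per 1000000. The median log2 fold change of the 14875 genes tested was -0.175 on this scale and -0.778 with scaling by total counts alone. Within the rebamipide group the first library differed most over all genes, with a chi-square per degree of freedom of 346.8 and 497.6 against the second and the third library, which differed from each other by 79.1. It also had the lowest mitochondrial share. The third rebamipide library stood apart in keratinocyte genes, since Krt14, the basal keratinocyte keratin, had 26099 to 64371 counts in the vehicle libraries, 10954 and 6102 in the first and second rebamipide libraries, and 0 in the third. Slow muscle markers had 1.9 to 13.0 summed CPM in the vehicle libraries, 224 and 101 in the first and second rebamipide libraries, and 5.88 in the third. Fast muscle markers spread from 4820 to 23700 among vehicle libraries and from 251 to 30400 among rebamipide libraries. Summed CPM of 8 brown adipocyte markers went from 214–384 in the vehicle group to 5040–13000 in the rebamipide group. In all 3 rebamipide libraries 7 of these markers exceeded the highest vehicle value, and Elovl3, the remaining marker, was lower. Ucp1, which defines the cell type, had 0 counts in each vehicle library. In bulk tissue, a different number of cells of a type and a different amount of RNA per cell cannot be told apart.

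Promoter sequence is shown for Nrg4 and Kng2, the only genes of the set whose lowest rebamipide library lay above their highest vehicle library (2 of 9, where 24.5% of the 14875 genes tested did so). Both sequences are the 250 bases before the RefSeq gene start in build GRCm38.p6, chr9:55283626-55283875 and chr16:23029102-23029351, each on the minus strand and written 5′ to 3′ along the gene. Capitals mark AGGTCA, a nuclear receptor half-site, or its reverse complement TGACCT.
Nrg4: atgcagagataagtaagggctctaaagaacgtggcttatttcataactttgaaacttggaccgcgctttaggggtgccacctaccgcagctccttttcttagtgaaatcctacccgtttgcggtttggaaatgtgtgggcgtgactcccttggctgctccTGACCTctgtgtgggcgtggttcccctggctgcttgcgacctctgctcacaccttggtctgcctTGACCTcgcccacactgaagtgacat
Kng2: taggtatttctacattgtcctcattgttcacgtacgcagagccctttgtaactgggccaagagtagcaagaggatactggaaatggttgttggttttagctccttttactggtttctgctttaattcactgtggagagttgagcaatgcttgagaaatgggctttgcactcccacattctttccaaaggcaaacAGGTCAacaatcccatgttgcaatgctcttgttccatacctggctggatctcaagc
Nrg4 held 2 matches, 90 and 26 bases before the start, and Kng2 held 1 match, 56 bases before it. Gdf15 has 2 promoter entries, of which 1 held a match, 55 bases before its start, and the other held 0. The RefSeq table had a promoter for 8 of the 9 genes, and 3 of them held the half-site in at least 1 entry. Over all 32851 promoter entries of the same length, 14% held at least 1 match on either strand and 1.36% held 2 or more. The cAMP response element TGACGTCA, searched on both strands, was found in 0 of the 8 promoters and in 1.55% of all entries. The C/EBP-ATF element TTGCATCA, also searched on both strands, was found in Fgf21 alone, 139 bases before its start, and in 0.791% of all entries. A match of letters is not evidence of binding, and no match says only that these letters are not in the window.

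Nrg4 encodes neuregulin 4, a ligand of the ErbB family that brown fat secretes and that acts on the liver. It had 229, 414 and 591 counts in the vehicle libraries and 1518, 3690 and 4026 counts in the rebamipide libraries. On the CPM scale these were 4.59, 8.41 and 12.6 in the vehicle group, against 50, 144 and 154 in the rebamipide group. The groups were fully separated, and the first library was the lowest of each group. The mean went from 8.54 ± 4.03 to 116 ± 57.2 CPM (SD, n = 3), which is 13.6-fold higher, with a log2 fold change of 3.76 ± 0.59 (SE). Leaving out each library in turn gave log2 fold changes of 3.41 to 4.15, with 3.51 without the third rebamipide library. Nrg4 lies on chromosome 9, from 55127506 to 55234128 on the minus strand in the deposited table, whose build is GRCm39 per the submitters' processing notes. It overlaps Fbxo22 on the opposite strand. Of the 100-base windows of its longest transcript, 5.16% also occur in Fbxo22. Fbxo22 had 1115 to 1197 unscaled counts in the vehicle group and 765 to 1123 in the rebamipide group. The TMM-scaled library sizes were 46767886 to 49921960 for vehicle and 25659563 to 30368072 for rebamipide. On the CPM scale Fbxo22 was therefore higher in every rebamipide library than in any vehicle library. The part of shared reads in the Nrg4 values was not tested.

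**Figure D1:**
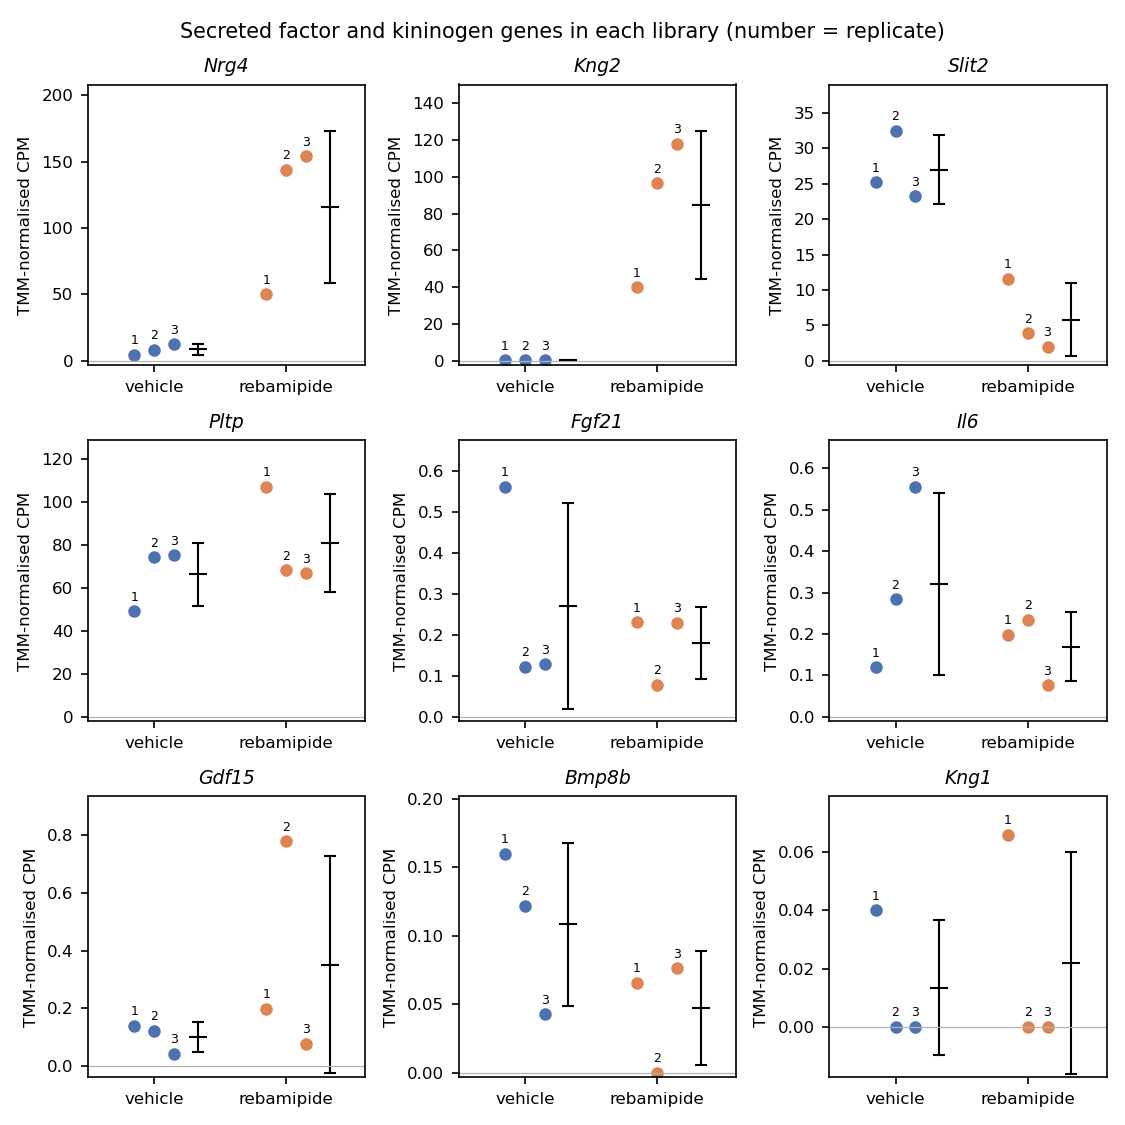
TMM-normalised CPM of the 9 genes in each library, with 1 panel per gene, a linear axis, the replicate number above each point, and the mean and SD of each group beside it as a black bar. Nrg4 and Kng2 are higher in every rebamipide library, Slit2 is lower in every rebamipide library, and the other 6 genes overlap between the groups.

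Kng2 and Kng1 are the kininogen genes of the mouse. Kng2 had 10, 16 and 8 counts in the vehicle libraries and 1217, 2482 and 3088 counts in the rebamipide libraries. In CPM these were 0.200, 0.325 and 0.171 for vehicle and 40.1, 96.7 and 118 for rebamipide. The groups did not overlap, and as with Nrg4 the first rebamipide library was the lowest and the third the highest. The mean went from 0.232 ± 0.0817 to 84.9 ± 40.2 CPM (SD, n = 3), a 366-fold difference (log2 fold change 8.49 ± 0.61 SE). By fitted log2 fold change Kng2 ranked 8th of 14875 genes and Nrg4 ranked 142nd. The value was 8.19 without the third rebamipide library and 7.82 with scaling by total counts alone.

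Kng1 had 2, 0 and 0 counts in the vehicle libraries and 2, 0 and 0 in the rebamipide libraries. Both groups were at or under 3 counts, the limit that a count of 0 allows, which corresponds to 0.0752 to 0.0917 CPM before TMM scaling, and no fold is given. The kininogens are neighbours on chromosome 16, with Kng2 at 22804604 to 22848232 on the minus strand and Kng1 at 22876615 to 22900828 on the plus strand (GRCm39), 28382 bases apart. They share part of their sequence, since 5.69% of the 100-base windows of Kng2 also occur in Kng1 and 5.8% of those of Kng1 occur in Kng2. Reads from those windows could be assigned to either gene or dropped.

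The genes around the kininogens were read in their order on the chromosome. Ahsg and Hrg, which encode liver plasma proteins, held at most 4 and 2 counts in any library. Fetub, the gene of fetuin-B, had 8, 16 and 30 counts in the vehicle libraries and 35, 80 and 68 counts in the rebamipide libraries. Fetub rose (log2 fold change 2.60 ± 0.68 SE, adjusted p = 0.0438 in edgeR's quasi-likelihood test), and the call did not hold with scaling by total counts alone (adjusted p = 0.0547) or without the expression filter (adjusted p = 0.0537). It was lost too when edgeR was run with vehicle library 1 or rebamipide library 3 left out, at adjusted p-values of 0.0899 and 0.0978. Dnajb11, beyond Ahsg, had 3819 to 4731 unscaled counts in the vehicle group and 1529 to 2395 in the rebamipide group. On the other side of Kng1, Eif4a2 had 7725 to 13439 and 9316 to 11757, and Rfc4 had 474 to 1178 and 200 to 367. Beyond them Adipoq, the adiponectin gene, had 9337 to 25408 counts in the vehicle group and 32675 to 46457 in the rebamipide group. Hepatocyte markers, read beside Kng2 because the liver is the classical source of kininogens, had 24.1, 8.53 and 8.83 summed CPM in the vehicle libraries and 7.28, 1.17 and 0.229 in the rebamipide libraries. Of these 7 markers, Fgb and Fgg were at 0 counts in every vehicle library, and Ttr, Apob, Fga and Fgg in every rebamipide library. Alb, the albumin gene, had 76 to 388 counts in the vehicle group and 6 to 139 in the rebamipide group. The first vehicle library, with the highest sum, had the 76 counts of Alb. Its sum rested mostly on another marker, which had 1125 counts there.

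**Figure D2:**
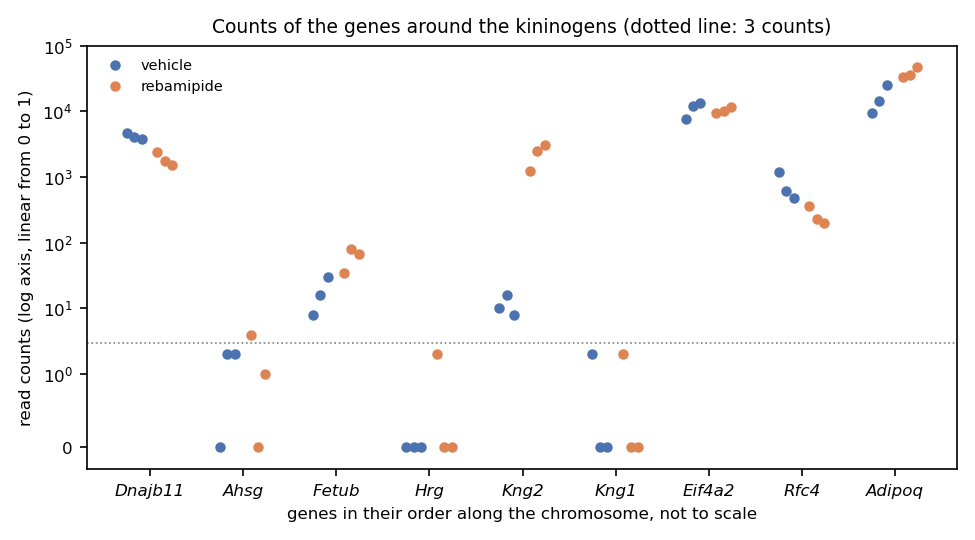
Read counts of 9 genes around the kininogens in each library, in their order along the chromosome and not to scale, on an axis that is logarithmic above 1 count, with vehicle in blue and rebamipide in orange. Kng2 runs from 8–16 to 1217–3088 counts, while Kng1 beside it stays at or under 2 counts in all 6 libraries.

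Slit2, whose protein binds Robo receptors and has a cleaved fragment described as a product of beige fat, went the other way. It had 1257, 1600 and 1085 counts in the vehicle libraries and 352, 100 and 52 in the rebamipide libraries. The CPM were 25.2, 32.5 and 23.2 for vehicle and 11.6, 3.90 and 1.98 for rebamipide. Every rebamipide library lay below every vehicle library, and the third was the lowest. Slit2 lies on chromosome 5, from 48140480 to 48465075 on the plus strand (GRCm39), and none of its 100-base windows occurs in another gene. The mean went from 27.0 ± 4.89 CPM down to 5.82 ± 5.08 CPM (SD, n = 3), 4.63-fold lower (log2 fold change -2.21 ± 0.65 SE). Without the first rebamipide library the log2 fold change was -3.19, and without the third it was -1.79. Basal keratinocyte markers were lower as well, with 2380 to 3880 summed CPM for vehicle and 1080, 574 and 15.0 for rebamipide, and 6 of 6 markers were below every vehicle library. Fibroblast markers had 12000 to 17700 summed CPM for vehicle and 15100, 3500 and 1850 for rebamipide, with 1 of 6 markers below every vehicle library. Per 1000 counts of the fibroblast gene Pdgfra, Slit2 had 388, 257 and 154 counts in the vehicle libraries and 124, 65.8 and 42.8 in the rebamipide libraries, which did not overlap. Per 1000 counts of Col1a1, the type I collagen gene, it had 7.26, 10.1 and 5.94 for vehicle and 3.01, 7.40 and 8.37 for rebamipide, which did. Per 1000 counts of Krt14 it had 48.2, 24.9 and 18.2 for vehicle and 32.1 and 16.4 in the first and second rebamipide libraries, which overlapped as well, and the third held no Krt14 counts. The part of these cell types in the Slit2 values was not tested.

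Pltp, the phospholipid transfer protein gene, had 2457, 3656 and 3518 counts in the vehicle libraries and 3236, 1748 and 1751 in the rebamipide libraries. The CPM were 49.2, 74.2 and 75.2 against 107, 68.1 and 66.8. The groups overlapped, with the first library the lowest of the vehicle group and the highest of the rebamipide group. After TMM scaling the fitted log2 difference was 0.28 ± 0.28 (SE), and -0.29 with scaling by total counts alone, so no direction is given. Pltp lies on chromosome 2, from 164681438 to 164699631 on the minus strand (GRCm39). Of its longest transcript, 10% of the 100-base windows occur in Ctsa, which overlaps it on the opposite strand.

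The remaining growth factors and the cytokine were close to the detection limit in both groups, and none passed the expression filter, nor did Kng1. For these genes a ratio of summed counts, rebamipide over vehicle after TMM scaling of the library sizes, is given with its 95% counting interval (exact binomial on the summed counts), which covers counting error only. Bmp8b, a brown fat factor tied to thermogenesis, had 8, 6 and 2 counts in the vehicle libraries and 2, 0 and 2 in the rebamipide libraries, a ratio of 0.444 (0.108 to 1.38). Its near copy Bmp8a, named after its values were seen, had 910, 171 and 16 counts for vehicle and 22, 0 and 0 for rebamipide. Of the 100-base windows of Bmp8b, 7.39% occur in other genes, Bmp8a among them. Fgf21, a fasting and cold responsive hormone, had 28, 6 and 6 counts in the vehicle libraries and 7, 2 and 6 in the rebamipide libraries. Its ratio was 0.666 (0.342 to 1.23), and 1.46 (0.638 to 3.41) without the first vehicle library, which held most of its vehicle counts. With any other library left out the Fgf21 ratio was 0.519 to 0.838, the lowest without the second vehicle library (interval 0.263 to 0.978).

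Gdf15, a stress-induced hormone that lowers food intake, had 7, 6 and 2 counts in the vehicle libraries and 6, 20 and 2 in the rebamipide libraries. The ratio was 3.31 (1.71 to 6.67) with all libraries and 1.38 (0.505 to 3.46) without the second rebamipide library, so the difference rested on that library. Il6 had 6, 14 and 26 counts for vehicle and 6, 6 and 2 for rebamipide, a ratio of 0.540 (0.274 to 1.00). Without the third vehicle library it was 0.844 (0.394 to 1.76). With any other library left out the Il6 ratio was 0.409 to 0.679, the lowest without the first vehicle library (interval 0.205 to 0.767). The groups overlapped for Bmp8b, Fgf21, Gdf15 and Il6. In GRCm39, Bmp8b lies on chromosome 4 from 122998958 to 123025892, and Fgf21 on chromosome 7 from 45263310 to 45264914. Gdf15 lies on chromosome 8 from 71082043 to 71085106, and Il6 on chromosome 5 from 30218112 to 30224979. Thus 2 of the 9 genes were higher in every rebamipide library, 1 was lower (24.0% of the genes tested were), and 6 overlapped. These counts describe genes chosen on this contrast.

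Levels were compared between genes by FPKM, in which counts are divided by library total and gene length. In the vehicle group the order was Pltp (31.9 ± 6.41), Nrg4 (1.73 ± 0.776), Slit2 (1.31 ± 0.24), Fgf21 (0.358 ± 0.342), Il6 (0.162 ± 0.108), Kng2 (0.105 ± 0.0369), Gdf15 (0.0686 ± 0.0361), Bmp8b (0.0349 ± 0.02) and Kng1 (0.00525 ± 0.00909; SD, n = 3 for each). Nrg4 and Slit2 overlapped, as did each neighbouring pair from Fgf21 down to Kng1. In the rebamipide group the order was Pltp (26.1 ± 10.9), Kng2 (24.2 ± 9.66), Nrg4 (14.8 ± 6.24), Slit2 (0.199 ± 0.196), Fgf21 (0.156 ± 0.0849), Gdf15 (0.148 ± 0.148), Il6 (0.0571 ± 0.0289), Bmp8b (0.0102 ± 0.00885) and Kng1 (0.00627 ± 0.0109). The libraries of Pltp and Kng2 overlapped, as did those of Kng2 and Nrg4. Nrg4 and Slit2 were separated by a wide gap, from 7.64 as the lowest Nrg4 value to 0.423 as the highest Slit2 value. From Slit2 down, neighbours overlapped except Il6 and Bmp8b. The deposited gene lengths of Nrg4 (6075 bases) and Slit2 (25433 bases) exceed their longest GENCODE M21 transcripts (2095 and 9960 bases), which lowers their FPKM. With the longest transcript in place of the deposited length, an alternative chosen after seeing the data, the rebamipide means were 43.0 ± 18.1 for Nrg4, 30.0 ± 12.5 for Pltp and 28.8 ± 11.5 for Kng2, so the order of these 3 genes depended on the length used. Gdf15 (0.177 ± 0.177) and Fgf21 (0.156 ± 0.0849) also changed places, while the order in the vehicle group was the same.

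Nrg4 and Kng2 were then set against adipocyte genes within each rebamipide library. Per 1000 counts of Ucp1 there were 18.7, 16.7 and 26.7 counts of Nrg4 and 15.0, 11.3 and 20.5 counts of Kng2. Per 1000 counts of Kng2 there were 1250, 1490 and 1300 counts of Nrg4 in the rebamipide libraries, against 22900, 25900 and 73900 in the vehicle libraries. The ratio of these genes was therefore close among the rebamipide libraries and far from that in the vehicle libraries. Per 1000 counts of Adipoq, which white and brown adipocytes both express, Nrg4 had 24.5, 29.4 and 23.3 counts for vehicle and 46.5, 105 and 86.7 for rebamipide. Kng2 had 1.07, 1.14 and 0.315 for vehicle and 37.2, 70.7 and 66.5 for rebamipide on the same base. Neither gene overlapped between the groups when scaled to Adipoq. Pltp per 1000 counts of Adipoq did not overlap either, with 263, 260 and 138 for vehicle and 99.0, 49.8 and 37.7 for rebamipide. Summed CPM of 9 adipocyte markers were 1650 to 4910 in the vehicle group and 12400 to 22100 in the rebamipide group. Of these 9 markers, 6 were above every vehicle library in all rebamipide libraries and 0 were below. The part of these markers in the values of Nrg4, Kng2 and Pltp was not tested.

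**Figure D3:**
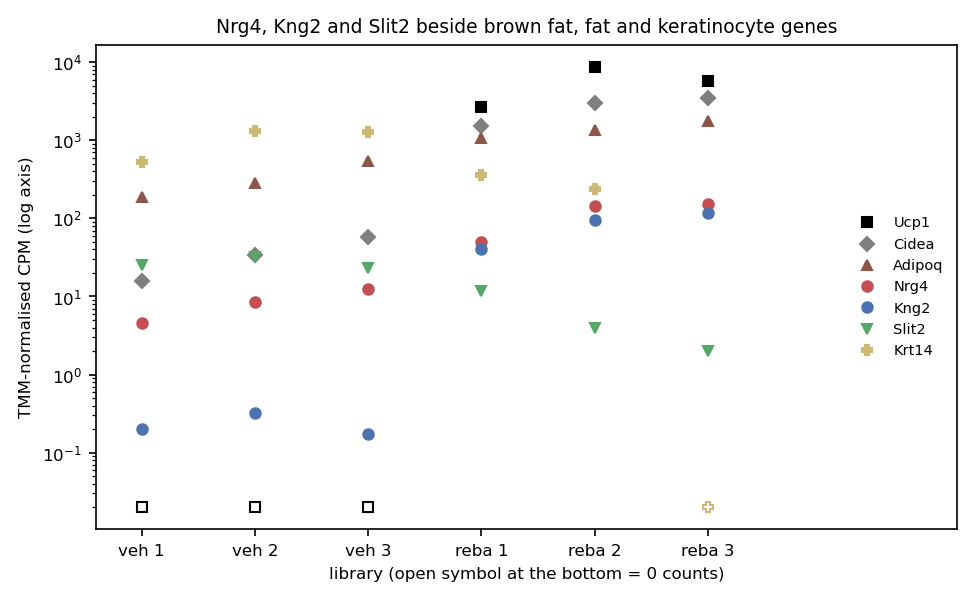
TMM-normalised CPM on a log axis of Nrg4, Kng2 and Slit2 in the 6 libraries, beside the brown fat genes Ucp1 and Cidea, the adipocyte gene Adipoq and the keratinocyte gene Krt14, with open symbols at the bottom for 0 counts. Nrg4 runs from 4.59–12.6 CPM with vehicle to 50–154 with rebamipide and Kng2 from 0.171–0.325 to 40.1–118, while Krt14 is at 0 in the third rebamipide library.

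The genes whose pattern over the 6 libraries was most like each of these genes were found among 13174 genes, as the smallest root mean square difference of centred log2(CPM + 1). For Nrg4 they were Pfkfb3, a regulator of glycolysis (0.126), and Cd274, which encodes the immune checkpoint ligand PD-L1 (0.164). Cd274 had 4.01, 8.57 and 14.5 CPM for vehicle and 54.6, 121 and 135 for rebamipide, and like Nrg4 its first library was the lowest of each group. For Kng2 they were Gys2, the liver type glycogen synthase (0.266), and Plin5, a lipid droplet protein of oxidative tissues (0.331). Gys2 had 16, 32 and 28 counts in the vehicle libraries and 1362, 3266 and 2407 in the rebamipide libraries. For Slit2 they were Ephb6, an Eph receptor (0.138), and Hr, the hairless gene (0.165). Pltp was nearest to Hip1 (0.059) and Atg9a (0.075), and Il6 to Borcs6 (0.046) and Ebp (0.052). Il6 was nearly flat on this scale because of the offset of 1. These are likenesses over 6 libraries in 2 groups, and any gene with the same difference between the groups would score well.

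Receptors, partners and relatives of the 9 genes were read from 10 lists, of which 118 of 119 genes were in the table and 102 were tested. At an adjusted p-value under 0.05 in edgeR's quasi-likelihood test 13 rose and 13 fell, against 14.1% and 6.51% of all genes tested. With scaling by total counts alone 11 rose and 36 fell, against 8.46% and 25.2% of all genes tested. With DESeq2 19 rose and 30 fell of 112 list genes, against 15.8% and 15.1% of all genes tested. Of the 26 genes, the 21 that the naming rule selects had the same direction in every fit that gave them a value. With at least 10 counts required in every library only 17 of the 21 were fitted, without Erbb4, Cpn2, Fetub and Nrg2. In edgeR the calls were lost across the whole table when the second vehicle or the second rebamipide library was left out. Without the second vehicle library 0 list genes and 0 of 14964 genes passed, with 40 list genes at an unadjusted p-value under 0.05. Without the second rebamipide library 0 list genes and 1 of 15335 genes passed, with 36 list genes at that unadjusted threshold. In edgeR the calls of Acvr2a, Cpm, Fetub, Fgfr3, Nrg2 and Tgfbr1 were also lost both without the first vehicle library and without the third rebamipide library, that of Erbb3 without the former, and those of Jak2 and Srgap2 without the latter. The call of Tgfbr1 was lost without the third vehicle library as well. Without the second library of either group the fold changes of Klb (log2 fold change 3.38 with all libraries, 3.34 and 3.22 without those libraries) and Erbb4 (4.11, 4.20 and 4.09) moved by less than their standard errors. DESeq2, without the second vehicle library, called 16 list genes higher and 27 lower, beside 2662 and 2114 of 16300 genes. Without the second rebamipide library it called 13 and 16, beside 1961 and 1489 of 16064 genes.

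Of 13 ErbB ligands and receptors tested, 1 rose and 5 fell, and the list's median log2 fold change was -2.19. The gene that rose was Erbb4, the main receptor of NRG4. Its counts were 4, 8 and 8 in the vehicle libraries and 34, 65 and 96 in the rebamipide libraries (log2 fold change 4.11 ± 0.65 SE, edgeR adjusted p = 0.0129). On the FPKM scale Erbb4 was at 0.0137 ± 0.00474 with vehicle, below Erbb3 (22.5 ± 6.77), Erbb2 (20.2 ± 8.44) and Egfr (15.9 ± 3.47). With rebamipide it was at 0.154 ± 0.0699, still below Erbb3 (3.34 ± 2.12), Erbb2 (3.02 ± 2.44) and Egfr (2.51 ± 2.04) in each library. Erbb3, which lacks strong kinase activity and pairs with other ErbB receptors, fell from 108 ± 30.5 to 23.9 ± 12.3 CPM (log2 fold change -2.18 ± 0.45 SE, edgeR adjusted p = 0.0248). Nrg2, another neuregulin, fell from 526, 225 and 133 counts to 28, 14 and 8 (log2 fold change -3.33, adjusted p = 0.0249, edgeR). Egfr, Erbb2 and Tgfa, outside the naming rule, fell as well, with adjusted p-values of 0.0395, 0.0463 and 0.0295 in edgeR. Epgn had the highest mean FPKM of the list over the 6 libraries (13.5), which rested on the third vehicle library (5.53 without it, against 12.5 for Erbb3). It encodes the EGF receptor ligand epigen and had 1083, 327 and 3711 counts for vehicle and 263, 206 and 2 for rebamipide, and the groups overlapped (adjusted p = 0.22, edgeR). Basal keratinocyte markers moved with the genes that fell, as given above for Slit2, and their part in these values was not tested.

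Of 14 genes around BMP8B, 3 fell and 0 rose. Bmpr1a, a type I BMP receptor, fell from 148 ± 30.0 to 49.9 ± 12 CPM (log2 fold change -1.56 ± 0.26 SE, edgeR adjusted p = 0.0149). Acvr2a, an activin type II receptor, and Tgfbr1, a TGF-β type I receptor, had log2 fold changes of -1.47 and -1.08 (adjusted p = 0.0291 and 0.0352, edgeR). Smad4, the shared Smad, stood at 75.1 ± 7.89 and 71.1 ± 1.77 CPM and did not pass, but was lower with scaling by total counts alone (adjusted p = 0.0318, edgeR). Basal keratinocyte markers, given beside Slit2, were lower as well, and their part in these values was not tested. In DESeq2, where 15.1% of all genes fell and 15.8% rose, 7 of these 14 genes fell and 1 rose.

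Of 5 endocrine FGF receptors and ligands tested, 1 rose and 1 fell. Klb encodes β-Klotho, the co-receptor that FGF21 needs beside FGFR1. It rose from 273, 588 and 835 counts to 2068, 3853 and 3924 (log2 fold change 3.38 ± 0.55 SE, edgeR adjusted p = 0.0135). Brown adipocyte and adipocyte markers, given above, were higher in summed CPM as well, and their part in the Klb value was not tested. Fgfr1 itself, at 106 ± 26.3 CPM with vehicle and 126 ± 14.4 CPM with rebamipide, did not pass (adjusted p = 0.433, edgeR). Fgfr3 fell by 1.88 on the log2 scale (standard error 0.47, adjusted p = 0.0394, edgeR). Fgf21 was thus near the limit of detection in libraries where its co-receptor gene was at 123 ± 47.3 CPM.

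The GDF15 receptor gene Gfral, which acts in the hindbrain, had 2 counts in the first vehicle library and 0 in the other libraries. Of the 10 other genes of the list, which are the GDF15 co-receptor gene Ret and genes of the integrated stress response, 1 rose and 0 fell. This was Asns, asparagine synthetase, which had 1761, 1487 and 1671 counts for vehicle and 2251, 3106 and 3487 for rebamipide (log2 fold change 1.7 ± 0.26 SE, edgeR adjusted p = 0.0125). Atf4, the transcription factor of the response, was at 143 ± 20.6 and 128 ± 8.19 CPM and did not pass, but was lower with scaling by total counts alone (adjusted p = 0.0401, edgeR). In DESeq2 4 of these 10 genes rose and 2 fell, beside 15.8% and 15.1% of all genes.

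Of 9 Slit and Robo genes tested in edgeR, Robo4 rose and Srgap2 fell. In DESeq2 1 of 10 rose and 5 fell, beside 15.8% and 15.1% of all genes. With scaling by total counts alone 1 of 9 rose and 3 fell, beside 8.46% and 25.2% of all genes. Robo4, the Robo receptor of endothelial cells, went from 11.3 ± 3.73 to 44.7 ± 12.8 CPM (log2 fold change 1.99 ± 0.34 SE, edgeR adjusted p = 0.0156). Endothelial markers were higher as well, with 224 to 540 summed CPM for vehicle and 1020 to 1410 for rebamipide, and 4 of 5 markers were above every vehicle library. Their part in the Robo4 value was not tested. Srgap2, a GTPase activating protein downstream of Robo, fell by 0.76 on the log2 scale (standard error 0.17, adjusted p = 0.0294, edgeR). Gpc1, a heparan sulfate proteoglycan that binds SLIT2, had 3796, 4295 and 3848 counts for vehicle and 2820, 657 and 272 for rebamipide and did not pass (log2 fold change -0.93, adjusted p = 0.374, edgeR). This rested on the first rebamipide library, without which the log2 fold change was -2.18 (adjusted p = 0.025, edgeR).

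Of 9 genes of lipoprotein handling tested with PLTP, 2 rose and 0 fell. Gpihbp1, which carries lipoprotein lipase to the capillary wall, rose (14.3 ± 4.72 CPM with vehicle, 125 ± 44.1 CPM with rebamipide; log2 fold change 3.12 ± 0.39 SE, edgeR adjusted p = 0.00993). Angptl4, a lipoprotein lipase inhibitor, rose (31.3 ± 14.3 CPM with vehicle, 332 ± 73.3 CPM with rebamipide; log2 fold change 3.41 ± 0.46 SE, edgeR adjusted p = 0.0101). Endothelial markers, given beside Robo4, were higher as well, and their part in the Gpihbp1 value was not tested. Apoe, the list gene of highest FPKM, was at 1320 ± 310 and 1280 ± 47.4 CPM, and like Pltp it overlapped between the groups.

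The kallikrein-kinin list was read beside the kininogens. The proteases that release kinins or start the plasma cascade were close to 0, with at most 4 counts of Klkb1 or Klk1 and 11 of F12 in any library, and 0 of F11 throughout. Of the 9 genes tested 1 rose and 2 fell. Cpn2, the regulatory subunit of carboxypeptidase N, which inactivates kinins, had 65, 25 and 4 counts for vehicle and 1092, 1541 and 1775 for rebamipide (log2 fold change 6.42 ± 0.98 SE, edgeR adjusted p = 0.0121). Its catalytic partner Cpn1 had 3 counts in the second vehicle library and 0 in the others. Cpm, a membrane carboxypeptidase that cleaves kinins, fell from 169 ± 110 to 17.3 ± 5.98 CPM (log2 fold change -3.29, adjusted p = 0.0254, edgeR). In summed CPM, given above, basal keratinocyte markers were lower and brown adipocyte and adipocyte markers higher. The part of these cell types in the Cpn2 and Cpm values was not tested. The bradykinin receptor genes did not pass. Bdkrb2 stood at 6.58 ± 1.77 and 2.27 ± 1.66 CPM and Bdkrb1 at 0.289 ± 0.162 and 0.194 ± 0.203 CPM (adjusted p = 0.103 and 0.677, edgeR). Serping1, the C1 inhibitor and the list gene of highest FPKM, stood at 339 ± 172 and 189 ± 143 CPM and did not pass, except in DESeq2 without the first rebamipide library (adjusted p = 0.00928).

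**Figure D4:**
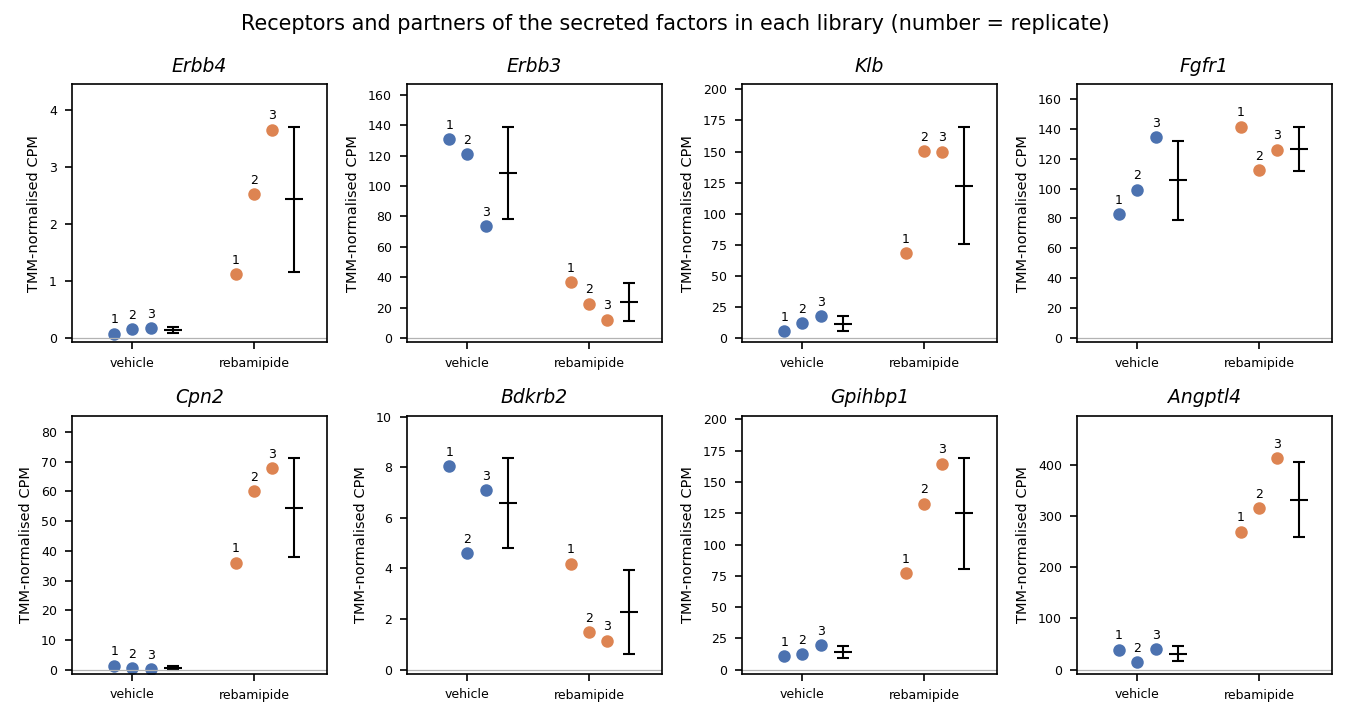
TMM-normalised CPM of 8 receptors and partners in each library, with a linear axis, the replicate number above each point, and the mean and SD of each group as a black bar. Erbb4, Klb, Cpn2, Gpihbp1 and Angptl4 are higher in every rebamipide library, Erbb3 and Bdkrb2 are lower in every rebamipide library, and Fgfr1 overlaps.

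Of 13 IL-6 family genes tested in edgeR, 1 fell and 0 rose, beside 6.51% and 14.1% of all genes. In DESeq2 1 of 14 fell, beside 15.1% of all genes. With scaling by total counts alone 6 of 13 fell, beside 25.2% of all genes. On log2(FPKM + 1) 7 of 13 fell, beside 4809 of 14875 genes. Jak2, a kinase of cytokine receptors, went from 33.0 ± 6.26 to 12.7 ± 2.98 CPM (log2 fold change -1.37 ± 0.27 SE, edgeR adjusted p = 0.0211). Il6st, the shared receptor subunit gp130, was at 376 ± 132 and 334 ± 74.6 CPM. Markers of macrophages, a source of Il6, had 264 to 603 summed CPM with vehicle and 535, 221 and 132 with rebamipide.

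Of 19 other genes for factors that brown fat releases or for enzymes that make such factors, 5 rose and 0 fell, with a median log2 fold change of -0.26. S100b, a calcium binding protein that brown adipocytes release toward sympathetic nerves, rose (5.15 ± 1.01 CPM with vehicle, 61.6 ± 22.5 CPM with rebamipide; log2 fold change 3.58 ± 0.37 SE, edgeR adjusted p = 0.00939). Ephx2, an intracellular epoxide hydrolase that makes lipid mediators, rose (43.4 ± 20.3 CPM with vehicle, 580 ± 216 CPM with rebamipide; log2 fold change 3.74 ± 0.51 SE, edgeR adjusted p = 0.0101). Vegfb, a vascular growth factor, rose (17.7 ± 7.06 CPM with vehicle, 101 ± 28.0 CPM with rebamipide; log2 fold change 2.51 ± 0.38 SE, edgeR adjusted p = 0.0122). Angptl8 and Vegfa, outside the naming rule, were the other genes called (adjusted p = 0.0303 and 0.0468, edgeR). The remaining 14 did not pass, and in DESeq2 5 of the 19 rose and 4 fell, beside 15.8% and 15.1% of all genes. Brown adipocyte markers went from 214–384 to 5040–13000 summed CPM and adipocyte markers from 1650–4910 to 12400–22100, and their part in these values was not tested.

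**Figure D5:**
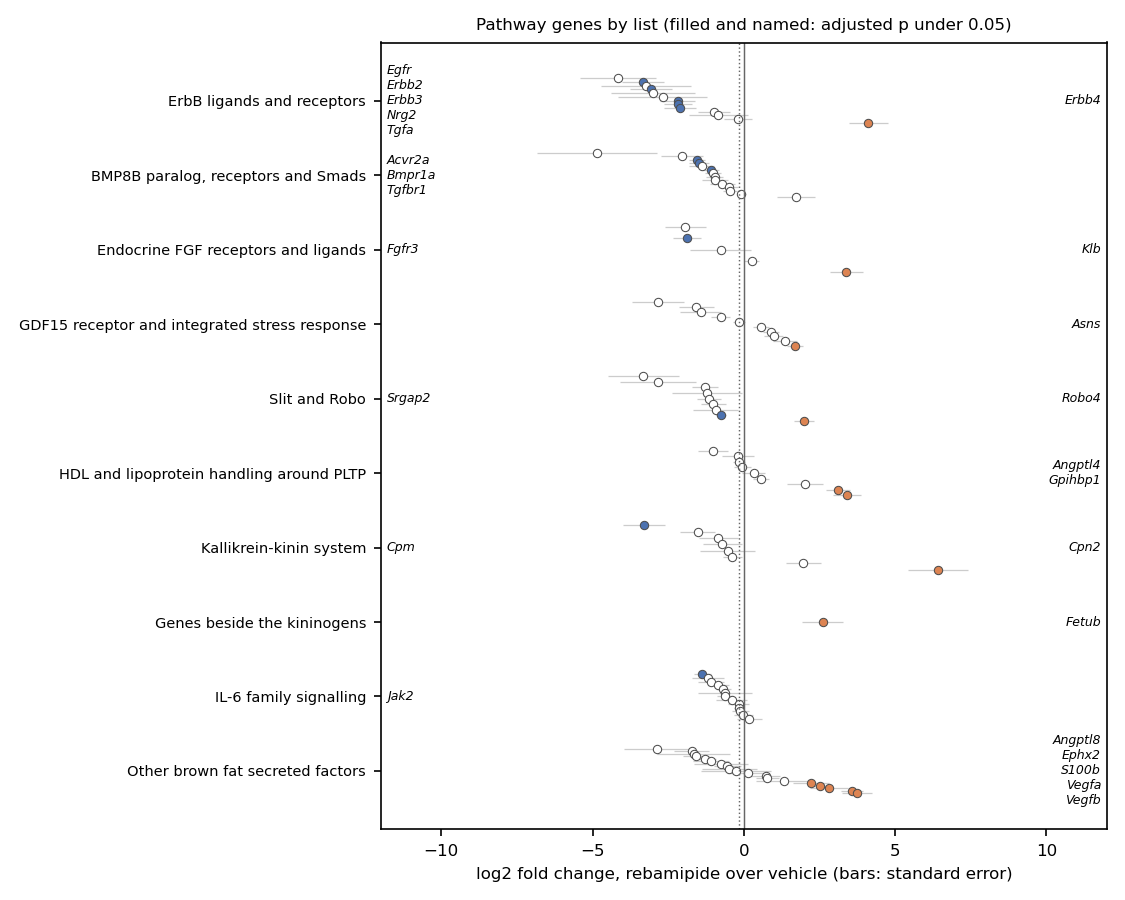
Log2 fold change of the tested genes of the 10 lists, rebamipide over vehicle, with its standard error as a grey bar, filled orange for genes that rose and blue for genes that fell at an adjusted p-value under 0.05 in edgeR, and with the dotted line at the median of all genes, -0.175. Of the tested genes 1 is not shown, and the largest rise is that of Cpn2 at 6.42.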

How the data were processed

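RNA of dorsal skin from 3 vehicle and 3 rebamipide mice was sequenced from poly-A selected libraries, and the groups were taken from the labels. The counts deposited by the authors are whole reads per gene and are not normalised. Their deposited FPKM follow from these counts when divided by gene length and by the library's summed counts. The submitters' processing notes name fastp 0.22.0, HISAT2 2.1.0, HTSeq 0.9.1 and GRCm39, and the strand setting of the counting is not given in the sources used here, so reads of overlapping genes on opposite strands may have been lost or shared. Replicates differed by far more than sampling noise. The members and lists were chosen with earlier results of these data known.

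All genes were tested in R 4.3.3 with edgeR 4.0.16 (TMM, filterByExpr, quasi-likelihood test, Benjamini-Hochberg adjustment). Alternatives were DESeq2 1.42.0, limma 3.58.1 (voom, or log2(FPKM + 1)), other scalings and filters, a replicate block and each library left out in turn. Named are the 9 members, up to 3 genes per list with the smallest p-values among adjusted p under 0.05, the gene of highest FPKM of each list, the first gene of each marker list, and 2 nearest genes for members with a mean of at least 10 counts, searched among tested genes with a mean of at least 50. Other genes, such as the neighbours on chromosome 16, were named after their values were seen. A gene that the rule selects is not reported here. Adissp had no entry under that symbol in the table. Promoters came from RefSeq (GRCm38.p6) and shared windows from GENCODE M21 transcripts, and no coordinates were converted between builds.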

Additional observations from a re-analysis of the deposited data

How the results depend on the processing

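Nrg4 and Kng2 were higher and Slit2 was lower under every scaling, filter, tool and left-out library that gave them a value. Kng2 had no value with at least 10 counts required in every library. Pltp changed sign with scaling by total counts alone (-0.29) and on log2(FPKM + 1) (-0.33). On log2(FPKM + 1), which understates low genes, the log2 fold changes were 2.48 for Nrg4, 4.43 for Kng2 and -0.96 for Slit2. Over all genes, 1258 were higher and 3752 lower with scaling by total counts alone, and the number lower was 1512 with at least 10 counts in every library, 2535 with DESeq2 and 4809 on log2(FPKM + 1). Of the list genes, 36, 30 and 49 were lower with total counts alone, DESeq2 and log2(FPKM + 1). Leaving out each library in turn, in edgeR and DESeq2, gave 0 to 3608 genes higher and 0 to 4225 lower over all genes, and 0 to 21 higher and 0 to 48 lower among the list genes. The lowest values came without the second vehicle or the second rebamipide library in edgeR (unadjusted p under 0.05: 4116 and 4062 genes), and the cause was not tested. Of the 21 called list genes that the naming rule selects, 13 passed without the first vehicle library, 13 without the third rebamipide library, and 20 or 21 in each DESeq2 fit with a library left out. Deviations of same-numbered libraries from their group means correlated at -0.093, -0.024 and -0.055, and those of differently numbered libraries at -0.34 to 0.344. With 3 libraries per group this cannot show whether the replicate numbers pair the samples. With a replicate block 1432 genes were higher and 855 lower over all genes, and 15 and 16 among the list genes, where Acvr2a, Tgfbr1 and Srgap2 no longer passed. Depth limits Bmp8b, Fgf21, Gdf15, Kng1 and Il6, whose highest count was 28.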
